A study of Mus musculus with 6 samples.

Results

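Immediate early genes and the feedback genes of mitogen-activated protein kinase (MAPK) signalling were measured in group 2 innate lymphoid cells (ILC2s) with and without the mechanosensitive channel gene Piezo1. The set was chosen by name and has 34 genes, which encode AP-1 subunits, EGR and NR4A transcription factors, dual-specificity phosphatases and other early response proteins. In the table of 18057 genes, 33 of the 34 were present, and 31 had enough counts to be tested. Fosb is not analysed here. Egr3 and Nr4a3 were present but did not pass the filter on low counts.

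ILC2s are lymphocytes of barrier tissues. They have no antigen receptor and release IL-5 and IL-13 when alarmins such as IL-33 reach them. The Piezo1 KO group had the genotype Il7rcrePiezo1flx, which is a floxed Piezo1 allele with Cre expressed from Il7r. The WT group had the genotype Il7rcre, so both groups carried the driver, although the sample titles call the second one WT. Il7r is active in lymphoid cells generally, so the deletion need not be limited to ILC2s in the animal. Cells of both groups came from the lungs of mice given 3 intranasal injections of 1 µg recombinant IL-33. Culture for 24 h followed, with 10 ng/mL of IL-2 and the same of IL-7, and libraries were made from 10 ng of RNA. Each group had 3 libraries. No label states that each came from its own animal, and the spread that p-values rest on may therefore be technical.

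Immediate early genes need no new protein synthesis for their induction. Extracellular signals reach them through kinases such as ERK, p38 and JNK, which act on transcription factors already bound at or near their promoters, among them SRF with its ternary complex partners and CREB. Their transcripts are mostly short-lived, so their levels follow recent signalling. Some of the induced genes then close the loop: dual-specificity phosphatases remove phosphate from MAPKs, and the TTP family protein Zfp36 shortens the life of AU-rich mRNAs. In ILC2s, IL-33 acts through MAPK and NF-kappaB, and AP-1 factors such as Fos, Junb and Batf are known regulators of cytokine genes in lymphocytes.

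Promoter sequence was at hand for 23 of the 33 genes present, as 27 windows of 300 bases that run from 250 before to 50 after a RefSeq start site (GRCm38.p6). Those of Fos, an AP-1 subunit, Ier3, a survival-associated early gene, and Dusp1, a nuclear MAPK phosphatase, are shown, because the level of each stood apart between the genotypes (below) and because their motifs are arranged differently. Capitals mark CRE half-sites (TGACG, either strand), kappaB sites, CArG boxes and, on the gene's strand, TATAA. The windows are chr12:85473640-85473939 on the plus strand for Fos, chr17:35821463-35821762 on the plus strand for Ier3 and chr17:26508423-26508722 on the minus strand for Dusp1.
Fos: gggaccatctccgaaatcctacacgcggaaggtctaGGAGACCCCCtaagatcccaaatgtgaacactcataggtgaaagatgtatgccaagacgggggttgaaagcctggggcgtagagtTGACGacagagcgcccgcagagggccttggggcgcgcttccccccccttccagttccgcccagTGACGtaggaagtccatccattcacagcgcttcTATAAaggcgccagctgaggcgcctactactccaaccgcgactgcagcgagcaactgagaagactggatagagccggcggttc
Ier3: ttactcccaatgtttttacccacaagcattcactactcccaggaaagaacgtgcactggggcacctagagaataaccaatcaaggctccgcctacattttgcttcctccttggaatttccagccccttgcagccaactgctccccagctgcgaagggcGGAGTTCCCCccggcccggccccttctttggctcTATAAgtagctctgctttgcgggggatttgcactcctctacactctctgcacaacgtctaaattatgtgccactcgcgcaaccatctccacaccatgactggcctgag
Dusp1: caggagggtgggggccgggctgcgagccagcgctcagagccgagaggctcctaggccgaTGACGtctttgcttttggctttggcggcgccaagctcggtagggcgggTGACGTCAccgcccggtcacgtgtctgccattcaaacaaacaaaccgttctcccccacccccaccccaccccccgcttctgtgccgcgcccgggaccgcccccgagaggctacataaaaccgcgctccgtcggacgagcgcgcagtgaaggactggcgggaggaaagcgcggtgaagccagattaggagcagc

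In Fos, the CRE half-sites began 129 and 66 bases before the start, a kappaB match began at 214 and TATAA at 33. Ier3 had a kappaB match that began 92 bases before its start and TATAA at 58. Dusp1 had a half-site at 191, and those at 143 and 140 overlap as the full palindrome TGACGTCA. Over all windows of these genes, TGACG was in 14 of 27 (51.9%, 12 genes), against 20.8% of all 32851 RefSeq windows of this length. The full palindrome was in the windows of Btg2 and Dusp1 (7.41%, against 1.79%). CArG boxes, the sites named for SRF, were in 6 windows (22.2%, against 1.63%) that belong to Dusp5, Egr2 and Zfp36, and Egr2 has several overlapping windows. GCGNGGGCG, the EGR motif, was in 6 windows (22.2%, against 5.55%). The AP-1 motif TGANTCA was in the window of Zfp36l1 alone (3.7%, against 7.81%). These matches describe letters and are not measured binding sites. Sites more than 250 bases before a start lie outside the windows, so a gene without a match here, such as Fos for the CArG box, may have one further upstream. Gem was among the genes without a window.

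The libraries held 13059046 to 33459904 estimated counts. Piezo1 itself was at 150.0, 109 and 122 CPM (counts scaled by TMM to the effective library size) in Piezo1 KO libraries, against 247, 278 and 160.0 CPM in WT libraries. The groups were apart, but the log2 fold change of −0.85 ± 0.21 (SE) did not pass the threshold of 0.05 (adjusted p = 0.112, edgeR). It passed in 3 of 12 alternative analyses, DESeq2 (0.00193), limma-voom (0.0157) and without WT replicate 3 (0.0163). Reads from exons beyond the floxed segment are counted too, so intact transcript was not measured. All 12 ILC2 markers were present, at a summed 13621 to 14565 CPM in Piezo1 KO and 11811 to 12732 CPM in WT, and most of this sum is Il5 and Il2ra. Of the 12, 2 fell and none rose past the threshold in edgeR. On the higher side, 6 had an unadjusted p under 0.05 there, against 6.3% of all genes tested. On the lower side 4 did, against 6.91%. Il7r, whose locus drives the Cre in both groups, was at 30.5, 33.7 and 34.3 CPM in Piezo1 KO libraries, against 67.3, 74.8 and 58.3 CPM in WT libraries (log2 fold change −1.03 ± 0.12, adjusted p = 0.00722, edgeR). Icos, a costimulatory receptor, averaged 234 ± 12.3 CPM in Piezo1 KO and 358 ± 13.1 CPM in WT (SD, n = 3 each; −0.61 ± 0.09, adjusted p = 0.0168, edgeR). Both calls were lost without Piezo1 KO replicate 1, Piezo1 KO replicate 2 or WT replicate 1. That of Icos was also lost without Piezo1 KO replicate 3 and with replicate number as a block. Over the 12 alternatives, adjusted p was at most 0.0639 for Il7r and 0.108 for Icos. Gata3, the lineage factor, had separate groups and did not pass (−0.42 ± 0.09, adjusted p = 0.0612, edgeR). On the higher side, Thy1 (1.06 ± 0.21, adjusted p = 0.0603) and Il5 (0.35 ± 0.09, adjusted p = 0.120) had separate groups and did not pass in edgeR. DESeq2 and limma-voom each called 5 of the 12: Gata3, Icos, Il5, Il7r and Thy1. Log2 fold changes were positive for 7 of the 12 and negative for 5, with a median of 0.23. Marker sums of other cells were far below the ILC2 sum, although the T cell sum was above Il7r alone in both groups. Erythroid and platelet markers (5 of 8 present) summed to 26.8 to 31.4 CPM in Piezo1 KO, against 4.45 to 5.4 CPM in WT, and B and plasma cell markers (3 of 7) to 80.2 to 104 CPM, against 34.4 to 40.3 CPM. T cell markers (6 of 10) summed to 120 to 152 CPM, against 154 to 196 CPM, and NK cell and ILC1 markers (3 of 7) to 40.2 to 59.8 CPM, against 63.9 to 87.3 CPM. Granulocyte and mast cell markers (4 of 11) were at 4.02 to 5.39 CPM, against 8.24 to 12.4 CPM. In edgeR, 2 erythroid and platelet genes and 1 B and plasma cell gene were called higher (1.0% of all genes were). The NK cell and ILC1 list and the granulocyte and mast cell list each had 1 gene called lower (0.509% of all genes were). DESeq2 and limma-voom each called Hba-a1, Hba-a2, Ighm, Tbx21 and Cma1. The part of these markers of other cells in the results below was not tested. In bulk RNA, fewer cells of a type and less RNA per cell cannot be told apart.

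Of the 31 early response genes tested, 1 rose in Piezo1 KO, Gem, and none fell past the threshold in edgeR, where 7 had an unadjusted p under 0.05 on the lower side (6.91% of all genes did). The background was 214 of 14149 genes called (1.51%), of which 142 were higher (1.0%) and 72 lower (0.509%). The other 30 genes did not pass. DESeq2 called 4 (Bhlhe40, Fos, Gem and Ier3, with 4.36% of all genes called), and limma-voom called 4 (Fos, Gem, Ier3 and Klf6, with 3.1% of all genes called).

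Gem encodes a small GTPase of the RGK family, which binds the beta subunits of voltage-gated calcium channels and lowers their current. It is an early gene of mitogen-stimulated T cells. The gene lies at chr4:11704457-11714752 (plus strand, mm10), and its exons overlap no other annotated gene. Gem was at 102, 113 and 101 CPM in Piezo1 KO libraries, against 37.5, 41.3 and 38.2 CPM in WT libraries. Every Piezo1 KO library was more than 2-fold above any WT library, and the spread within a group was small. The means were 106 ± 6.81 CPM and 39.0 ± 2.05 CPM (SD, n = 3 each), a log2 fold change of 1.43 ± 0.10 (SE) or 2.70-fold, at adjusted p = 0.000383 (edgeR). The counts behind these values were 2412, 3282 and 2371 in Piezo1 KO and 745, 1384 and 510 in WT. Its call held in 12 of 12 alternative analyses, with log2 fold changes of 1.38 to 1.47 and adjusted p no higher than 0.01002. It ranked 11 by p among all genes tested and 47 by fold among the 142 genes called higher. No other tested gene of the set changed by 2-fold or more. In the list of other early response genes (below), Klf4 and Arc had larger log2 fold changes than that, at low levels. Klf4 averaged 0.326 CPM in Piezo1 KO and 1.15 CPM in WT (−1.77 ± 0.63), and Arc 1.00 and 2.54 CPM (−1.35 ± 0.53). Neither passed (adjusted p = 0.274 and 0.317, edgeR).

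The genes around Gem were looked at after its value was seen. Within 1 Mb, 21 other genes were tested, and 1 was called: Cdh17, an intestinal cadherin that starts 43.4 kb after Gem ends. Cdh17 was at 11.5, 15.0 and 14.4 CPM in Piezo1 KO libraries, against 1.96, 2.81 and 2.77 CPM in WT libraries. The groups were far apart (log2 fold change 2.44 ± 0.22, adjusted p = 0.00211, edgeR). The other 20 neighbours had log2 fold changes of −0.66 to 0.81, and the smallest adjusted p among them was 0.480 (edgeR). The DNA repair gene Rad54b on the other side was at 21.9, 21.2 and 22.7 CPM in Piezo1 KO, against 24.9, 24.7 and 24.5 CPM in WT.

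**Figure D1:**
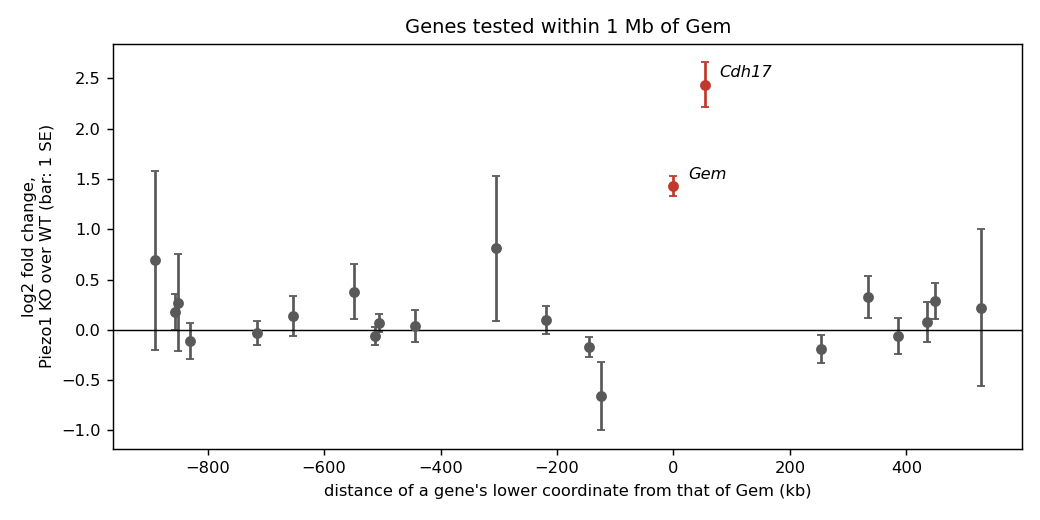
Log2 fold change, Piezo1 KO over WT, of each gene tested within 1 Mb of Gem (vertical axis, bars are the SE from edgeR) by its distance in kb from the Gem start (horizontal axis). Gem at 1.43 and Cdh17 at 2.44 stand above 20 other genes that lie between −0.66 and 0.81.

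Many of the genes without a call still had separate groups. In 15 of 31 (48.4%), the 3 Piezo1 KO libraries did not overlap the 3 WT libraries, against 20.6% of all genes tested. Of these, 5 were higher in Piezo1 KO (Gem, Ier3, Bhlhe40, Junb and Zfp36, against 10.1% of all genes) and 10 lower (against 10.5%: Fos, Atf3, Dusp1, Dusp2, Dusp4, Dusp10, Zfp36l1, Myc, Klf6 and Klf10). An unadjusted p under 0.05 was found for 12 of 31 (38.7%), 5 higher and 7 lower, against 13.2% of all genes, 6.3% higher and 6.91% lower. The genes are more abundant than most, with a median of 32.2 CPM over all libraries, against 20.2 CPM for all genes tested, and the part of this in both shares was not tested. Their median log2 fold change was −0.075, against 0.018 for all genes, and 10 were positive and 21 negative. The median size of the change without its sign was 0.276, against 0.181. The set was chosen with earlier results of these data known, so these comparisons do not rest on an independent list.

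**Figure D2:**
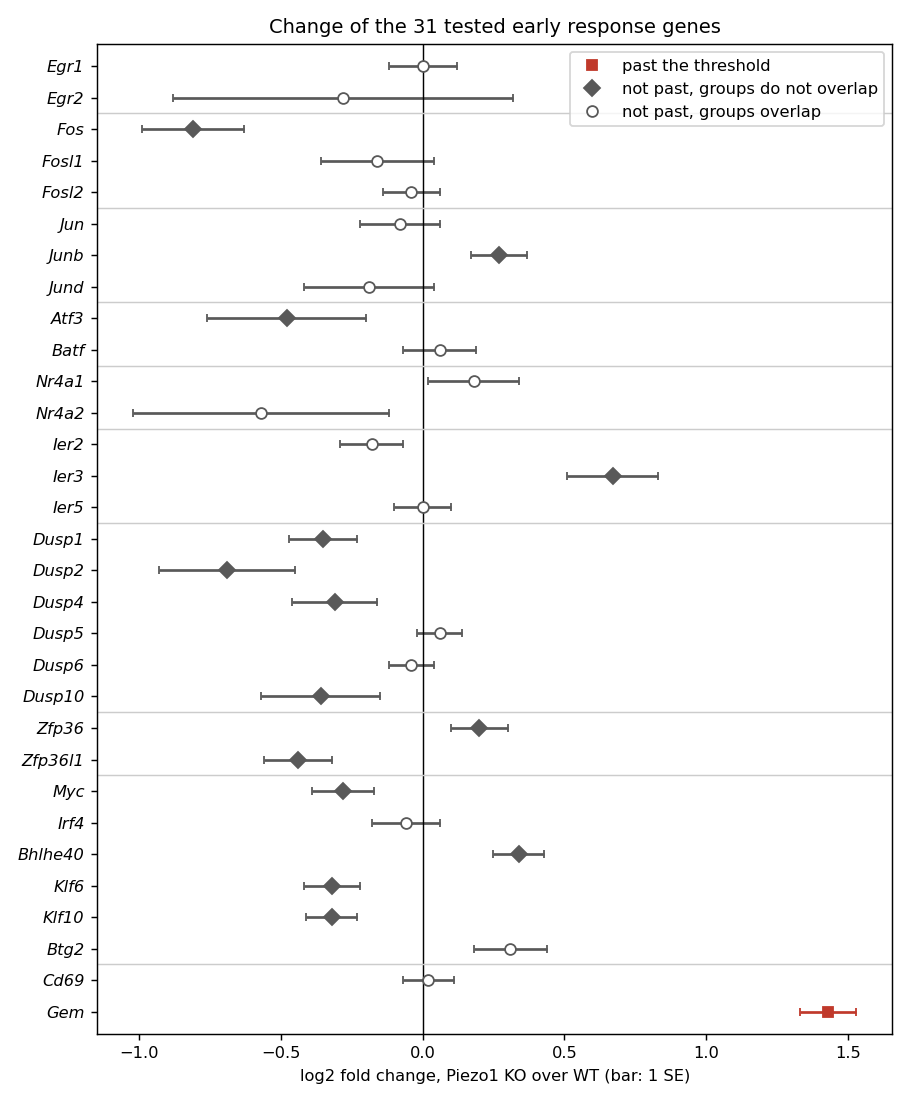
Log2 fold change, Piezo1 KO over WT, of the 31 early response genes tested, with the SE from edgeR as bars, grouped by family. Gem at 1.43 is the single gene past the threshold, Ier3 at 0.67 is the next on the positive side, and Fos at −0.81 and Dusp2 at −0.69 lie furthest on the negative side.

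The EGR factors are zinc finger proteins whose genes are among the most direct ERK targets. Egr1 was at 21.3, 17.7 and 20.5 CPM in Piezo1 KO libraries, against 19.6, 19.9 and 20.01 CPM in WT libraries. The groups overlapped, and the log2 fold change was 0.00 ± 0.12 (adjusted p = 1.00, edgeR). Egr2, which restrains lymphocyte activation, was near the detection limit, with 12, 48 and 17 counts in Piezo1 KO libraries, against 40, 28 and 9 counts in WT libraries. Its libraries scattered within both groups (log2 fold change −0.28 ± 0.60). Egr3, with 10, 8 and 9 counts in Piezo1 KO and 4, 7 and 3 counts in WT, was too low to test.

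FOS proteins pair with JUN proteins to form AP-1. Fos was at 8.41, 7.60 and 6.15 CPM in Piezo1 KO libraries, against 12.5, 14.6 and 11.6 CPM in WT libraries. The highest Piezo1 KO library lay under the lowest WT library. The log2 fold change was −0.81 ± 0.18, the most negative of all genes in the set, with adjusted p = 0.0851 in edgeR, 0.00673 in DESeq2 and 0.0269 in limma-voom. The FOS relatives that lack its transactivation domain differed less: Fosl1 had a log2 fold change of −0.16 ± 0.20 and Fosl2 of −0.04 ± 0.10, with overlapping groups (adjusted p = 0.788 and 0.920, edgeR). Fos shares a stretch of chromosome 12 with the AP-1 partner genes Jdp2 (122 kb away) and Batf (209 kb away).

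Of the JUN genes, Junb was at 303, 314 and 271 CPM in Piezo1 KO libraries, against 231, 238 and 266 CPM in WT libraries. These groups were apart by a narrow margin, and the log2 fold change of 0.27 ± 0.10 did not pass (adjusted p = 0.283, edgeR). Jund was at 194, 165 and 140.0 CPM in Piezo1 KO, against 179.7, 134 and 257 CPM in WT, so WT replicates 2 and 3 bracketed all others. Its log2 fold change was −0.19 ± 0.23, and that of Jun was −0.08 ± 0.14 (adjusted p = 0.779 and 0.871, edgeR). Junb, Jund, Ier2 and Dusp4 lie on chromosome 8, as Piezo1 does, at 37.5, 51.8, 37.8 and 87.7 Mb from it.

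Atf3, a stress-induced repressor, was low, at 2.45, 1.73 and 2.26 CPM in Piezo1 KO libraries, against 2.62, 3.26 and 3.07 CPM in WT libraries. The groups were apart, with a log2 fold change of −0.48 ± 0.28 (edgeR adjusted p = 0.526). Batf, a JUN partner needed for type 2 cytokine programmes in lymphocytes, was at 103, 110.0 and 99.7 CPM in Piezo1 KO, against 82.3, 117 and 101 CPM in WT (log2 fold change 0.06 ± 0.13). Its WT libraries spanned all of the Piezo1 KO ones.

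The NR4A orphan nuclear receptors follow antigen receptor and calcium signals in lymphocytes. Nr4a1 was at 12.3, 11.1 and 10.9 CPM in Piezo1 KO libraries, against 11.6, 10.01 and 8.69 CPM in WT libraries (log2 fold change 0.18 ± 0.16, adjusted p = 0.705, edgeR). Nr4a2 stood at 0.761, 0.622 and 0.555 CPM in Piezo1 KO, against 0.553, 1.08 and 1.27 CPM in WT, with overlapping groups (log2 fold change −0.57 ± 0.45). Nr4a3 had 2, 3 and 0 counts in Piezo1 KO and 0, 1 and 12 in WT. The 12 counts were in WT replicate 3, which also had the most of the macrophage gene Lyz2, 6.75 CPM against at most 1.55 CPM in every other library. The whole list of macrophage and dendritic cell markers (11 of 14 present) did not differ in this way between WT libraries. It summed to 40.7 to 42.7 CPM in WT and 37.1 to 43.1 CPM in Piezo1 KO. A link of Nr4a3 to these markers was not tested.

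The IER genes are early genes of varied function. Ier3 was at 21.6, 27.7 and 22.9 CPM in Piezo1 KO libraries, against 12.8, 15.2 and 17.4 CPM in WT libraries. All Piezo1 KO libraries lay above all WT libraries, and the log2 fold change was 0.67 ± 0.16. Its adjusted p was 0.100 in edgeR, 0.0128 in DESeq2 and 0.0261 in limma-voom. Ier2 was at 96.4, 94.8 and 89.7 CPM in Piezo1 KO, against 102, 95.6 and 122 CPM in WT (−0.18 ± 0.11), and Ier5 at 57.6, 63.1 and 57.0 CPM, against 56.4, 55.6 and 66.2 CPM (0.00 ± 0.10). Neither passed (adjusted p = 0.540 and 0.996, edgeR).

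None of the 6 dual-specificity phosphatase genes passed in edgeR, DESeq2 or limma-voom. An unadjusted p under 0.05 in edgeR was found for 2 (Dusp1 and Dusp2), against 13.2% of all genes tested. Of the 6, 5 had negative log2 fold changes, and the median was −0.33. Dusp6, the cytoplasmic phosphatase specific for ERK and often read as a gauge of ERK output, was at 371, 376 and 388 CPM in Piezo1 KO libraries, against 394, 389 and 383 CPM in WT libraries. Its groups overlapped within a range that was narrow for so abundant a transcript, and the log2 fold change was −0.04 ± 0.08 (adjusted p = 0.882, edgeR). Dusp5, a nuclear ERK phosphatase, was at 72.3, 70.0 and 74.4 CPM in Piezo1 KO, against 67.7, 70.8 and 69.5 CPM in WT (0.06 ± 0.08). Both differences were near 0 with small errors.

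Of the other 4 phosphatase genes, none passed, and all had separate groups with lower values in Piezo1 KO. Dusp1, which acts on p38 and JNK as well as ERK, was at 23.5, 25.05 and 21.1 CPM in Piezo1 KO libraries, against 27.9, 28.7 and 32.3 CPM in WT libraries. The groups were apart, with a log2 fold change of −0.35 ± 0.12 (edgeR adjusted p = 0.240). Dusp2, a phosphatase of activated haematopoietic cells, was at 5.16, 7.08 and 5.72 CPM in Piezo1 KO, against 8.10, 8.24 and 12.7 CPM in WT. These groups were also apart, with WT replicate 3 well above the rest (−0.69 ± 0.24, adjusted p = 0.259, edgeR). Dusp4, a nuclear phosphatase, was at 14.9, 13.4 and 13.03 CPM in Piezo1 KO, against 19.97, 15.8 and 15.6 CPM in WT (−0.31 ± 0.15). Dusp10, which prefers p38 and JNK, was at 4.10, 4.63 and 4.23 CPM in Piezo1 KO, against 5.99, 4.63 and 6.07 CPM in WT (−0.36 ± 0.21). Piezo1 KO replicate 2 and WT replicate 2 were nearly equal for Dusp10, and neither of these last genes passed (adjusted p = 0.421 for Dusp4 and 0.535 for Dusp10, edgeR).

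The mRNA decay genes Zfp36 and Zfp36l1, whose proteins bind AU-rich elements, had opposite signs. Zfp36 was at 52.7, 51.7 and 45.7 CPM in Piezo1 KO libraries, against 43.9, 43.9 and 43.02 CPM in WT libraries (log2 fold change 0.20 ± 0.10, adjusted p = 0.434, edgeR). Zfp36l1 was at 25.99, 22.1 and 20.9 CPM in Piezo1 KO, against 30.4, 30.6 and 32.6 CPM in WT (−0.44 ± 0.12, adjusted p = 0.141, edgeR). Both had separate groups, and neither difference passed.

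Among the remaining transcription regulators, Bhlhe40, a helix-loop-helix repressor that sustains cytokine production in T cells, was at 243, 247 and 230.1 CPM in Piezo1 KO libraries, against 194, 175 and 198 CPM in WT libraries. The groups were apart, with a log2 fold change of 0.34 ± 0.09 and an adjusted p of 0.133 in edgeR and 0.0291 in DESeq2. Klf6, a zinc finger factor, was at 175, 175 and 168 CPM in Piezo1 KO, against 229, 225 and 194 CPM in WT (−0.32 ± 0.10, adjusted p = 0.186 in edgeR and 0.0449 in limma-voom). Klf10, a target of TGF-beta, was at 65.0, 56.1 and 60.6 CPM in Piezo1 KO, against 75.3, 73.2 and 77.9 CPM in WT (−0.32 ± 0.09, adjusted p = 0.178, edgeR). The KLF genes were thus lower by like amounts, with separate groups, and without a call in edgeR.

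Myc, the growth regulator, was at 141, 132 and 122 CPM in Piezo1 KO libraries, against 161, 141 and 178 CPM in WT libraries. Its groups touched without crossing, since Piezo1 KO replicate 1 and WT replicate 2 nearly met (−0.28 ± 0.11, adjusted p = 0.325, edgeR). Btg2, an antiproliferative gene, was at 32.8, 35.8 and 38.6 CPM in Piezo1 KO, against 25.2, 32.9 and 28.1 CPM in WT, an overlap by 1 library on each side (0.31 ± 0.13, adjusted p = 0.3502, edgeR). Irf4, the factor that reads antigen receptor strength, was at 109, 104 and 124 CPM in Piezo1 KO, against 122, 129 and 101 CPM in WT (−0.06 ± 0.12). Cd69, the early activation antigen that holds lymphocytes in tissue, was at 67.8, 77.4 and 74.1 CPM in Piezo1 KO, against 69.8, 76.2 and 70.5 CPM in WT. Its groups lay on top of each other (0.02 ± 0.09, adjusted p = 0.964, edgeR).

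**Figure D3:**
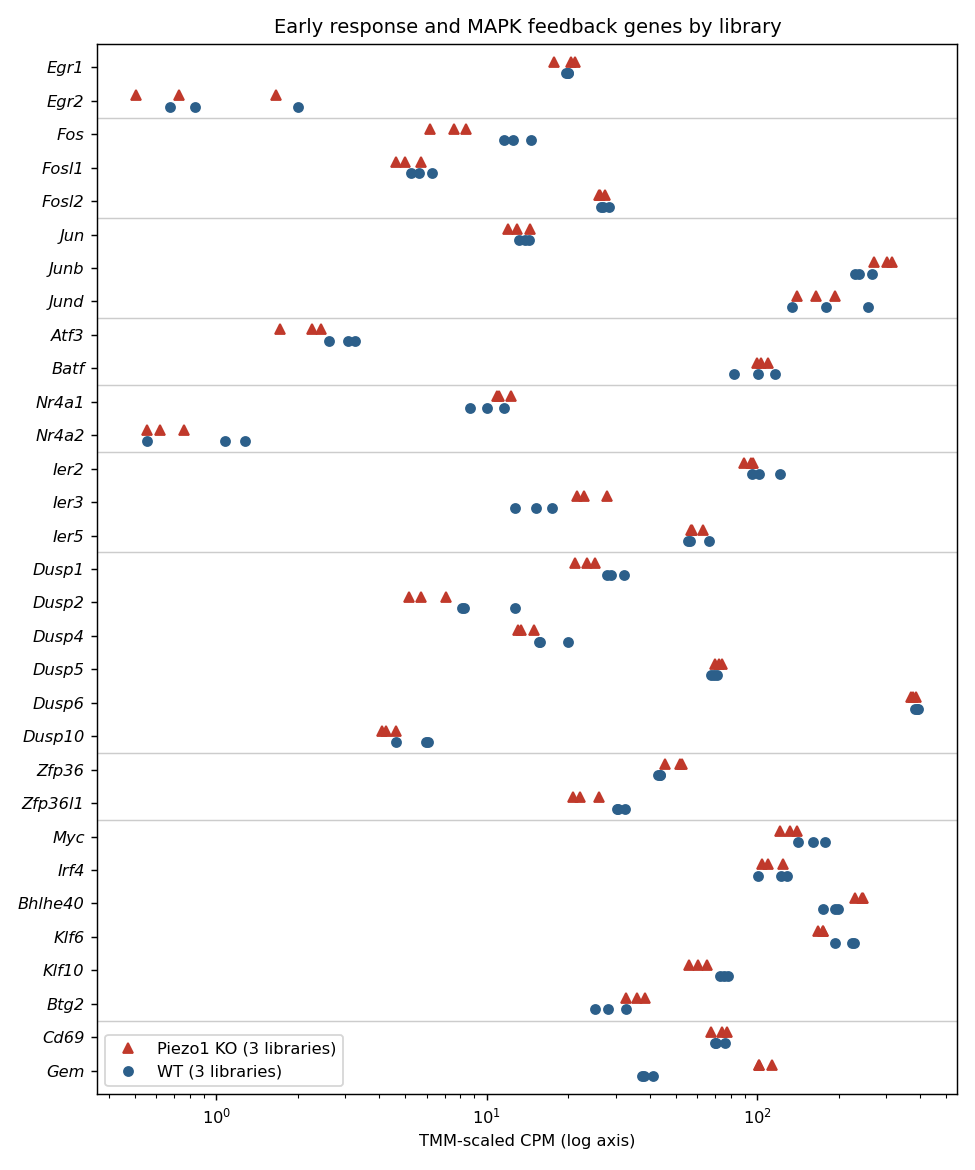
TMM-scaled CPM (log axis) of the 31 early response genes tested in each of the 3 Piezo1 KO and 3 WT libraries, 1 point per library. Gem shows the widest gap, with Piezo1 KO libraries at 101 to 113 CPM and WT libraries at 37.5 to 41.3 CPM, while the points of Egr1, Dusp6 and Cd69 overlap.

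Levels can be compared between genes only per length, so CPM was divided by the exon length of each gene (CPM per kb). On this scale Junb, Dusp6 and Jund were highest. Junb was at 129 in Piezo1 KO and 106 in WT, Dusp6 at 121 ± 2.82 and 124 ± 1.83, and Jund at 99.7 ± 16.1 and 114 ± 37.1 CPM per kb (SD, n = 3 each). The order of Dusp6 and Jund did not exceed the spread of Jund in WT. Gem was at 50.2 ± 3.24 CPM per kb in Piezo1 KO and 18.5 ± 0.972 in WT. In Piezo1 KO it stood beside Bhlhe40 (51.0) and Myc (48.4), while in WT it stood under Dusp5 (28.03) and Irf4 (24.0).

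Individual libraries also leaned one way across these genes. WT replicate 3, the shallowest library, was the highest of its group for 16 of 31 genes (51.6%), against 37.3% of all genes tested. Piezo1 KO replicate 3 was the highest of its group for 4 of 31 (12.9%, against 28.9% of all genes). Heat shock genes, which respond to handling of cells, summed to 4775 to 5289 CPM in Piezo1 KO and 4530 to 5095 CPM in WT. Of 10 genes, 9 were tested, with a median log2 fold change of −0.03, and edgeR, DESeq2 and limma-voom called none. An unadjusted p under 0.05 was found in edgeR for 2 of 9 (13.2% of all genes), in opposite directions: Hspa1b (−1.13 ± 0.33, at 2.07 to 2.18 CPM in Piezo1 KO and 3.27 to 7.05 CPM in WT) and Hsp90aa1 (0.29 ± 0.13). Their part in the early gene values was not tested. Exons of 9 of the genes overlap a gene on the opposite strand (Fosl1, Jun, Junb, Jund, Dusp1, Dusp5, Zfp36, Zfp36l1 and Bhlhe40), and the sources used here do not give whether the kit kept strand, so reads of both partners may be mixed in them.

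Genes of the same pathways outside the set were read from 6 lists. Over all genes tested, edgeR called 1.51%, with 1.0% higher and 0.509% lower. An unadjusted p under 0.05 was found in edgeR for 13.2% of all genes, 6.3% higher and 6.91% lower. DESeq2 called 4.36% and limma-voom 3.1%. In the ERK cascade, from Ras and its exchange factors to ERK and its kinase targets, 20 of 20 genes were tested, and edgeR called none in either direction. There, 5 had an unadjusted p under 0.05, and DESeq2 and limma-voom each called 1, Rasgrp1. Rasgrp1, the diacylglycerol-regulated Ras activator of lymphocytes, was at 152, 122 and 130.2 CPM in Piezo1 KO libraries, against 207, 212 and 152 CPM in WT libraries. Piezo1 KO replicate 1 met WT replicate 3, and the log2 fold change was −0.50 ± 0.15 (adjusted p = 0.180, edgeR, and 0.0377 without WT replicate 3). The median of the list was −0.11, and 14 of 20 were negative.

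In the p38 and JNK cascade, 16 of 17 genes were tested with a median log2 fold change of −0.06, and edgeR called none. There, 3 of 16 had an unadjusted p under 0.05 (13.2% of all genes did), DESeq2 called 1 (Rps6ka5) and limma-voom none. Rps6ka5 encodes the kinase MSK1, which phosphorylates CREB and histone H3 at early gene promoters. It averaged 149 ± 6.14 CPM in Piezo1 KO and 103 ± 21.3 CPM in WT (SD, n = 3 each), a log2 fold change of 0.53 ± 0.15 (edgeR adjusted p = 0.165).

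The list of MAPK feedback genes outside the set holds Sprouty and Spred genes, further phosphatases and ERK output genes. Of 20 named, 19 were tested, 2 rose (1.0% of all genes did) and none fell. On the lower side, 1 had an unadjusted p under 0.05, Spry1 (6.91% of all genes did). The median was 0.12. Etv5, an ETS factor that is a common readout of ERK activity, was at 199, 188 and 181 CPM in Piezo1 KO libraries, against 113, 111 and 95.6 CPM in WT libraries. Its groups were wide apart (0.83 ± 0.10, adjusted p = 0.00820, edgeR). Phlda1, a PH-like domain gene induced by growth factor signals, was at 109, 120.5 and 99.2 CPM in Piezo1 KO, against 64.1, 48.9 and 70.7 CPM in WT (0.84 ± 0.15, adjusted p = 0.0333, edgeR). Spry1, a Ras pathway inhibitor, averaged 20.2 ± 4.01 CPM in Piezo1 KO and 29.2 ± 3.32 CPM in WT, with a log2 fold change of −0.54 ± 0.17 that did not pass (adjusted p = 0.199, edgeR).

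Of 19 symbols listed for transcription factors that act upstream of early genes, 16 were tested, and 1 rose. The symbols include Mkl1 and Mkl2, which are older names of Mrtfa and Mrtfb. Elk3, a ternary complex partner of SRF that represses in its unphosphorylated state, was at 146, 141 and 150.5 CPM in Piezo1 KO libraries, against 95.7, 85.6 and 86.3 CPM in WT libraries. The groups were apart, with a log2 fold change of 0.71 ± 0.09 (edgeR adjusted p = 0.0100). Srf itself averaged 56.1 ± 3.33 CPM in Piezo1 KO and 61.6 ± 13.6 CPM in WT (−0.14 ± 0.15), and the list median was −0.07. The exons of Elk3 overlap those of Cdk17 on the opposite strand.

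Of 38 symbols listed for other early response genes, which include both Ccn1 and its older name Cyr61, 34 were tested. In edgeR, 1 rose, Nfil3, a bZIP repressor needed for the development of innate lymphoid cells. Nfil3 was at 138, 161 and 143 CPM in Piezo1 KO libraries, against 91.4, 83.2 and 98.9 CPM in WT libraries. Its lowest Piezo1 KO library exceeded its highest WT library by a clear margin (0.70 ± 0.10, adjusted p = 0.0207, edgeR). The list median was −0.09, and groups were apart in 16 of 34 genes, against 20.6% of all genes tested. In edgeR, 11 of the 34 had an unadjusted p under 0.05 (13.2% of all genes did). Of these, 5 were higher (against 6.3% of all genes) and 6 lower (against 6.91%). DESeq2 called 3, Nfil3, Id3 (log2 fold change 0.62 ± 0.15 in edgeR) and the lower Nfkbid (−0.67 ± 0.15 in edgeR), and limma-voom called 1, Nfil3. Among AP-1 partners outside the set, 7 of 11 were tested and edgeR, DESeq2 and limma-voom called none. The 1 with an unadjusted p under 0.05, Jdp2, a JUN dimerization repressor, was at 20.2, 27.6 and 55.4 CPM in Piezo1 KO, against 57.8, 67.8 and 53.1 CPM in WT. Piezo1 KO replicate 3 lay among the WT libraries (−0.80 ± 0.33, adjusted p = 0.344, edgeR), and without it the log2 fold change was −1.32 and passed (adjusted p = 0.0464).

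The 4 calls in these lists were less stable than that of Gem. Etv5 passed in 9 of 12 alternative analyses, and Phlda1, Elk3 and Nfil3 in 7 each. Without Piezo1 KO replicate 1, Piezo1 KO replicate 2 or WT replicate 1, none of the 4 passed, with adjusted p of 0.0593 to 0.0725 for Etv5, 0.0553 to 0.0807 for Elk3, 0.0985 to 0.139 for Nfil3 and 0.155 to 0.194 for Phlda1 (edgeR). Without Piezo1 KO replicate 3, Etv5 passed (0.0485), while Elk3 (0.0765), Nfil3 (0.0982) and Phlda1 (0.0983) did not. Without WT replicate 3, Gadd45g of the other early response genes also passed (0.0393). Each of the 4 stayed higher in Piezo1 KO in all 12.

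**Figure D4:**
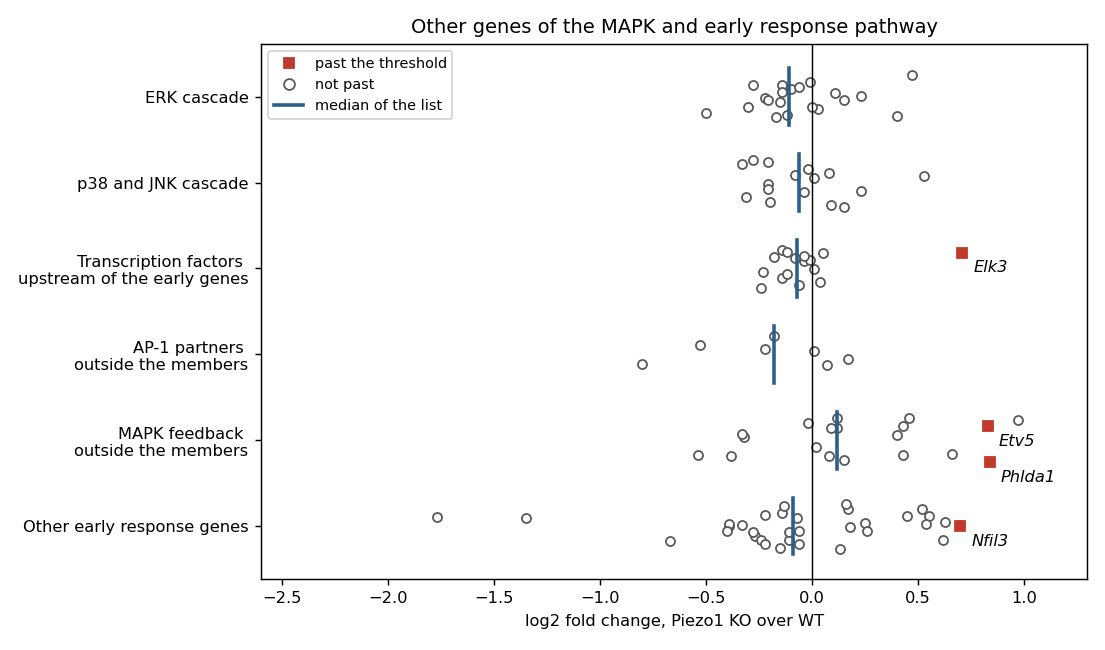
Log2 fold change, Piezo1 KO over WT, of every tested gene in the 6 pathway lists (points, 1 per gene), with the genes that edgeR called marked. The called genes are Etv5, Phlda1, Elk3 and Nfil3, at 0.70 to 0.84, and the list medians lie between −0.18 and 0.12.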

How the data were processed

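RNA-seq estimated counts per gene were deposited by the authors as 1 table with libraries in rows, in part fractional and without scaling of depth. Per the submitters' processing notes, reads were placed on mm10. The sources used here do not give the aligner, counter or annotation. Counts were rounded. Genes kept by filterByExpr (14149) were scaled by TMM and tested by edgeR 4.0.16 (R 4.3.3) quasi-likelihood, Piezo1 KO over WT, two-sided and with no covariate. P-values were adjusted by Benjamini-Hochberg over these genes. The SE is the absolute log2 fold change divided by the square root of F. The biological coefficient of variation was 0.201. The fit was tested on simulated counts. Total counts were 13059046 to 33459904 per library, which limits the precision of the rarest genes.

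The 12 alternatives were RLE size factors, no filter, a stricter filter (1 CPM or more in each library of a group), a replicate block, DESeq2 1.42.0, limma-voom (limma 3.58.1) with sample quality weights, and leaving out each library. No replicates agreed within sampling noise (chi-square per gene 10.8 to 60.7, where sampling noise alone gives about unity). All early genes of the set are named. From each pathway list, called genes with the smallest p (at most 3), or the single smallest p, are named. Spry1, Dusp3, Etv4, Srf, Gadd45g, Id3, Nfkbid, Klf4, Arc, Gata3, Thy1, Il5, Hspa1b, Hsp90aa1, Cdh17 and Rad54b were chosen after their values were seen. So were the markers of other cells named by gene and the genes of the closing observations. The members and lists were chosen with earlier results of these data known. Gene positions and exon lengths are from GENCODE M21 (GRCm38, which is mm10).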

Additional observations from a re-analysis of the deposited data

How the results depend on the processing

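Of 370 alternative values for the 31 early genes, 364 stayed on their side of the threshold in the same direction where called, and 6 newly passed: Fos, Ier3 and Bhlhe40 in DESeq2 and Fos, Ier3 and Klf6 in limma-voom. No called value lost its call or changed sign, and 6 genes without a call changed sign under some alternative. The set had 1 call in edgeR, 4 in DESeq2, 4 in limma-voom and 1 to 1 when a library was left out. Its median log2 fold change of −0.075 became −0.105 in limma-voom. When a library was left out, the median was −0.126 (without WT replicate 2) to −0.052 (without WT replicate 3). The stricter filter dropped Egr2 and Nr4a2, and the median of the genes left was −0.053. The pathway lists had 4 calls in all, 1 with the replicate block (Etv5), 8 in DESeq2, 5 in limma-voom and 0 to 6 when a library was left out. All genes called numbered 214, against 52 with the replicate block (37 higher, 15 lower), 593 in DESeq2 (352 higher, 241 lower), 439 in limma-voom (267 higher, 172 lower) and 33 to 297 when a library was left out. The counts were 35, 33 and 53 without Piezo1 KO replicates 1, 2 and 3, and 34, 297 and 237 without WT replicates 1, 2 and 3. Leaving a library out also leaves fewer residual degrees of freedom; other causes were not tested. In their deviations from the group means, same-numbered libraries correlated at −0.0227, −0.183 and −0.00752, and differently numbered ones at −0.182 to 0.209. With 3 libraries per group, these values cannot decide whether replicate numbers pair the libraries.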

Other observations

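Relatives and partners of Gem were read after its value had been seen. Among the other RGK GTPases, Rem2 was at 4.02, 3.70 and 4.53 CPM in Piezo1 KO libraries, against 1.91, 2.66 and 1.12 CPM in WT libraries. The groups were apart, and the log2 fold change of 1.07 ± 0.34 did not pass (adjusted p = 0.209, edgeR, and 0 of 12 alternative analyses). Rrad was at 12.0, 10.6 and 10.2 CPM in Piezo1 KO, against 10.8, 11.5 and 13.3 CPM in WT (−0.11 ± 0.15, adjusted p = 0.812, edgeR). Of the calcium channel beta subunit genes, which encode the proteins that RGK GTPases bind, Cacnb1 had a log2 fold change of 0.47 ± 0.40, Cacnb3 of 0.11 ± 0.40 and Cacnb4 of −0.40 ± 0.34, all at means under 2 CPM in both groups. None of these passed in edgeR.

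The EGR corepressor genes Nab1 and Nab2 had log2 fold changes of −0.20 ± 0.31 and 0.00 ± 0.14. Nab1 was at 38.8, 41.8 and 86.9 CPM in Piezo1 KO, against 66.7, 77.2 and 47.4 CPM in WT, so Piezo1 KO replicate 3 was its highest library.

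Among 8 AP-1 genes summed per exon length, Junb made up 40.7% ± 1.37 in Piezo1 KO and 34.7% ± 2.10 in WT (SD, n = 3 each), and Fos 0.990% ± 0.0742 in Piezo1 KO and 1.81% ± 0.404 in WT. Jund made up 31.4% ± 2.74 in Piezo1 KO and 36.5% ± 7.46 in WT, and Batf 23.6% ± 1.51 in Piezo1 KO and 23.3% ± 5.10 in WT. These shares are relative, so a rise in 1 gene lowers the others, and they were not tested.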
